A study of Mus musculus with 17 samples.

Results

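The 9 imprinted genes *H19*, *Igf2*, *Dlk1*, *Meg3*, *Peg3*, *Plagl1*, *Cdkn1c*, *Grb10* and *Mest* were followed in all 17 single-cell libraries, out of 30406 genes that every library measured. The set was chosen because *H19* and *Dlk1* were higher after bleomycin in skin stromal cells in an earlier look at these data, so that contrast is described here without a test. All 9 genes were found in the files, and each was given as CPM (its unique molecular identifiers, UMIs, each standing for 1 counted mRNA molecule, scaled to a common total) and as the share of cells with a UMI, by library and by marker-defined cell class.

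An imprinted gene is transcribed mainly or only from the copy inherited from 1 parent. Several imprinted genes control growth before birth and are turned down in most tissues after it, with muscle precursors and some stem and progenitor cells among the places where they persist. *H19* and *Igf2* share 1 control region, as do *Dlk1* and *Meg3*, and in each pair the long noncoding RNA and the growth gene come from opposite parental copies.

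The study sorted GFP+ cells by flow cytometry from the skin and kidney of 8-week-old mice that carried *PDGFRb-Cre* and the *Z/EG* reporter, in which cells that have ever expressed the Cre become green. SARATg mice also carried a human *ZFYVE9* (SARA, an endosomal protein first described as an adaptor of the TGF-β receptor) cDNA under a CAG promoter behind a lox-stop-lox cassette at Rosa26, and SARAWT littermates carried the Cre without it. In skin, 3 SARAWT libraries followed PBS and 3 followed subcutaneous bleomycin at 20 mg/kg, 3 times a week for 2 weeks, with 1 SARATg library for each. That schedule is the labels' own, where the study's methods speak of daily injections. In kidney, 3 SARAWT libraries followed vehicle and 3 followed intraperitoneal aristolochic acid (AA) at 5 mg/kg, 3 times a week for 3 weeks, with 2 SARATg libraries for vehicle and 1 for AA. The Cre is constitutive and has also been active in leukocytes, so the sort was not confined to mural cells, and most of the green cells here were not: of 28969 skin cells kept, 14335 passed the myeloid gate, 3082 the stromal gate and 144 the mural gate. Of 58129 kidney cells kept, 21192 were proximal tubule cells, 52 were stromal and 56 were mural. The defining receptor gene *Pdgfrb* had 7287 UMIs in skin and 492 in kidney.

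Several libraries went against their labels or stood apart. The transgene check, *Zfyve9*, was at 315 CPM in SARATg PBS and 226 CPM in SARATg bleomycin skin, and at 7.68 to 26.0 CPM in 5 of the 6 skin libraries labelled SARAWT, but at 620 CPM in the library labelled SARAWT PBS 3. Human *ZFYVE9*, the gene of the transgene cDNA, was listed only for SARAWT PBS 1 and 2 and SARAWT bleomycin 1 and 2. Mouse *Zfyve9* is therefore not the same check in those libraries as in the rest. Human *ZFYVE9* was at 845 CPM in the library labelled SARAWT PBS 1 and at 190.2 CPM in SARAWT PBS 2. It was at 89.3 and 115 CPM in SARAWT bleomycin 1 and 2, so none of these SARAWT libraries was without it. In kidney, *Zfyve9* was at 165 CPM in the library labelled SARAWT AA 1 and at 20.4 CPM in the library labelled SARATg AA 1, where the SARATg vehicle libraries had 89.0 and 89.6 CPM and the other SARAWT libraries 10.9 to 31.6 CPM. Barcodes shared with another library made up 55.5% of SARAWT PBS 2, 22.1% of SARAWT bleomycin 2, 17.6% of SARAWT bleomycin 1 and 7.38% of SARAWT PBS 1, and at most 2.13% elsewhere. Total depth ran from 3355217 UMIs in SARAWT PBS 2 to 137093834 UMIs, and SARAWT skin replicates 1 and 2 were counted on a longer gene list than the other libraries. *Xist*, transcribed from the inactive X chromosome of female cells, was at 451 to 701 CPM in those 4 libraries and at 0.143 to 0.655 CPM in the other 4 skin libraries, so among SARAWT skin libraries replicate 3, gene list and sex cannot be told apart, and both SARATg libraries share the list and the *Xist* level of replicate 3. In kidney *Xist* was at 1321 CPM in SARAWT vehicle 2 and 1299 CPM in the library labelled SARATg AA 1, and at 0.466 CPM or less elsewhere. Nothing in the labels says whether replicates were separate mice, so p values measure the spread between these libraries.

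The microRNAs carried by *H19* and *Mest*, the genes on which the results turn most, are shown as RefSeq gives them on GRCm38.p6, because poly-A 3′ libraries count the host RNA and not the mature microRNA. The *H19* RNA (chr7:142575529-142578143, minus strand, GENCODE vM21 coordinates) spans the hairpin of miR-675, and *Mest* (chr6:30723547-30748465, plus strand) spans that of miR-335. Capitals mark the seed, bases 2 to 8, and the 4 seeds differ.
miR-675-5p: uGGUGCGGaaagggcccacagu
miR-675-3p: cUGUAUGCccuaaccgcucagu
miR-335-5p: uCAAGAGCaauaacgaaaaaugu
miR-335-3p: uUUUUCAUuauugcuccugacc

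The 250 bases before the RefSeq start of *Dlk1* and of the first 2 *Mest* starts are shown because results below turn on both genes and both had a listed window. *Dlk1* begins on chr12 at 109452823, and *Meg3* begins 77.7 kb beyond the end of *Dlk1* on the same strand. The gap between *H19* and *Igf2* on chr7 is 72.6 kb. Capitals mark matches on either strand to 3 motifs, CAGCTG (an E-box form bound by myogenic factors, in 13.0% of 32851 such windows), TATAAA (12.4%) and GGGCGG (a GC box, 32.7%). No motif pair overlaps in these windows. The *Dlk1* window (chr12:109452573-109452822) holds none of the 3, the first *Mest* window (chr6:30733256-30733505) holds 1 CAGCTG and 1 GGGCGG, and the second (chr6:30737800-30738049) holds 1 GGGCGG. Windows were listed for 7 of the 9 members, without *H19* and *Cdkn1c*.
Dlk1: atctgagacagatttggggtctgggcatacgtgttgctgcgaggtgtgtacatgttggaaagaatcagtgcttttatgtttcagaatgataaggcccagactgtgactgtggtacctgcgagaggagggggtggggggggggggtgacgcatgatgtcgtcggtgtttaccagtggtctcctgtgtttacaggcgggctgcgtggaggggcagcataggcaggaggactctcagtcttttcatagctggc
Mest, first start: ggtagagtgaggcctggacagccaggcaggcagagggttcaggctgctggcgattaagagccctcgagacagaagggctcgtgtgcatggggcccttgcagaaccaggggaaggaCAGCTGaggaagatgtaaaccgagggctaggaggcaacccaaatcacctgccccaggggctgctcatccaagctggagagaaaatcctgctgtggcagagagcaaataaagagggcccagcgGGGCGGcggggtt
Mest, second start: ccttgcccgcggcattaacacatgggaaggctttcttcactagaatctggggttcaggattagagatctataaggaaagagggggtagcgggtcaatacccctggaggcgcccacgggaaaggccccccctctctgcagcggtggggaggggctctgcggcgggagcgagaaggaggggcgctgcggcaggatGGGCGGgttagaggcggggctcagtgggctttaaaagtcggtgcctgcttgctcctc

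*H19*, a long noncoding RNA and the growth-restraining partner of *Igf2*, was low in PBS stromal cells and higher in each bleomycin library. Summed over stromal cells it was at 10.6, 15.5 and 4.34 CPM in the libraries labelled SARAWT PBS 1, 2 and 3, and at 115, 77.7 and 85.0 CPM in SARAWT bleomycin 1, 2 and 3. The groups did not overlap, and the means were 10.1 ± 5.58 CPM and 92.4 ± 19.5 CPM (SD, n = 3 each), a 9.12-fold ratio (log2 3.19), and the log2 ratio was 5.11 with the cells of shared barcodes left out. SARATg stromal cells stood at 4.44 CPM after PBS and 48.6 CPM after bleomycin, a 10.96-fold ratio between 1 library each. Across the 10828 genes that passed the filter on low counts in these cells, 14.5% had all bleomycin libraries above all PBS libraries and 15.5% the reverse, and since *H19* was chosen on this contrast nothing is read from its place among them.

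*Dlk1*, a transmembrane Notch-family ligand found on embryonic mesenchyme, preadipocytes and regenerating tissue, stood apart in 1 library. It was at 4.08, 0 and 5.13 CPM in the libraries labelled SARAWT PBS 1, 2 and 3, where 0 UMIs in SARAWT PBS 2 allows up to 3.87 CPM, and at 4.35, 10.7 and 29.5 CPM in SARAWT bleomycin 1, 2 and 3. These groups overlapped, with means of 3.07 ± 2.71 and 14.9 ± 13.1 CPM (SD, n = 3 each). In SARATg stromal cells *Dlk1* was at 0.979 CPM after PBS and 437 CPM after bleomycin, a 446-fold ratio between 1 library each. The next highest skin library was SARAWT bleomycin 3 at 29.5 CPM.

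**Figure D1:**
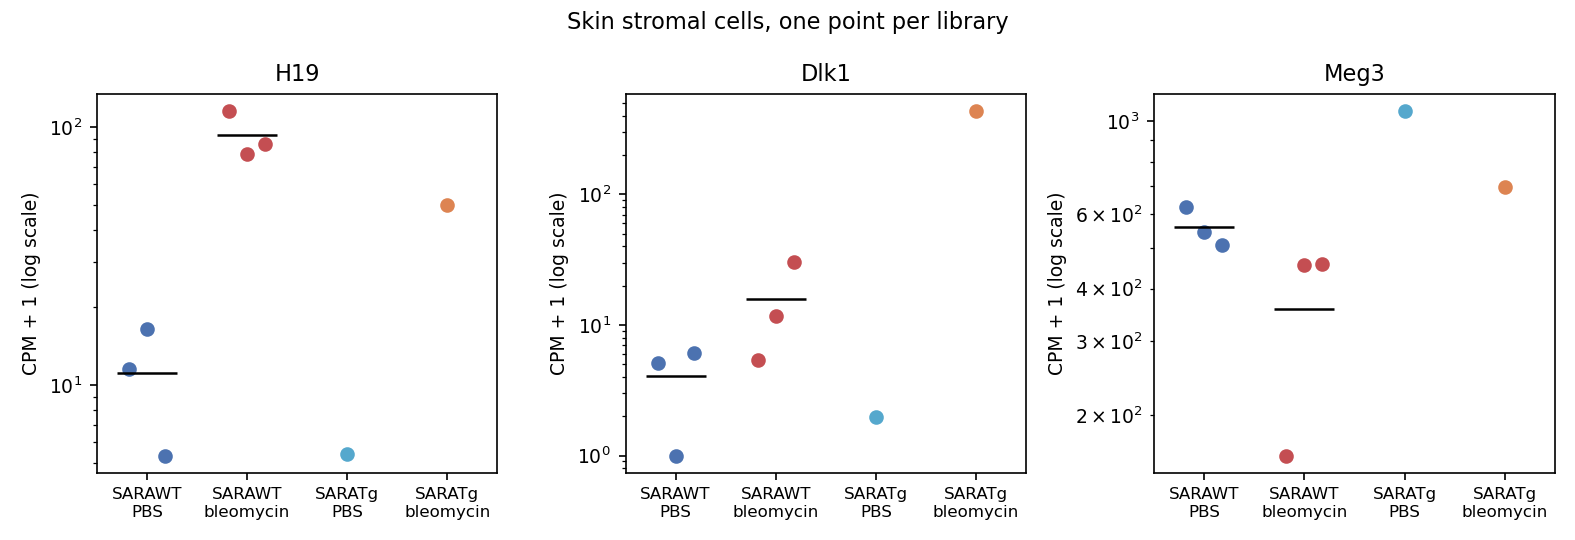
Level of *H19*, *Dlk1* and *Meg3* in skin stromal cells (CPM + 1, log axis), 1 point per library and a line at the mean of each SARAWT group. The *H19* bleomycin points sit at 48.6 to 115 CPM, all above the PBS points, and the SARATg bleomycin library stands alone for *Dlk1* at 437 CPM.

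The UMIs of both genes came from few cells in SARAWT skin, and those of *Dlk1* from many in SARATg bleomycin skin. For *H19* the top 5 cells of that library held 49.7% of UMIs. At equal depth its share of cells with *H19* lay within the range of SARAWT bleomycin, as given below. In SARAWT bleomycin 1, 2 and 3, *H19* UMIs were found in 12, 9 and 14 stromal cells out of 158, 202 and 143, and the single highest cell held 43.7%, 63.4% and 30.05% of them. In the libraries labelled SARAWT PBS 1, 2 and 3 there were 24, 5 and 8 such cells, and 48 of 96, 8 of 12 and 9 of 22 UMIs lay in 1 cell. In SARATg bleomycin, 63 of 454 cells held 745 *H19* UMIs, 15 of them with 10 or more. The *Dlk1* UMIs of that library, 6694 in number, were spread over 214 of 454 cells, with 5.26% in the highest cell and 136 cells at 10 or more. Both genes were seen in 39 of those cells.

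**Figure D2:**
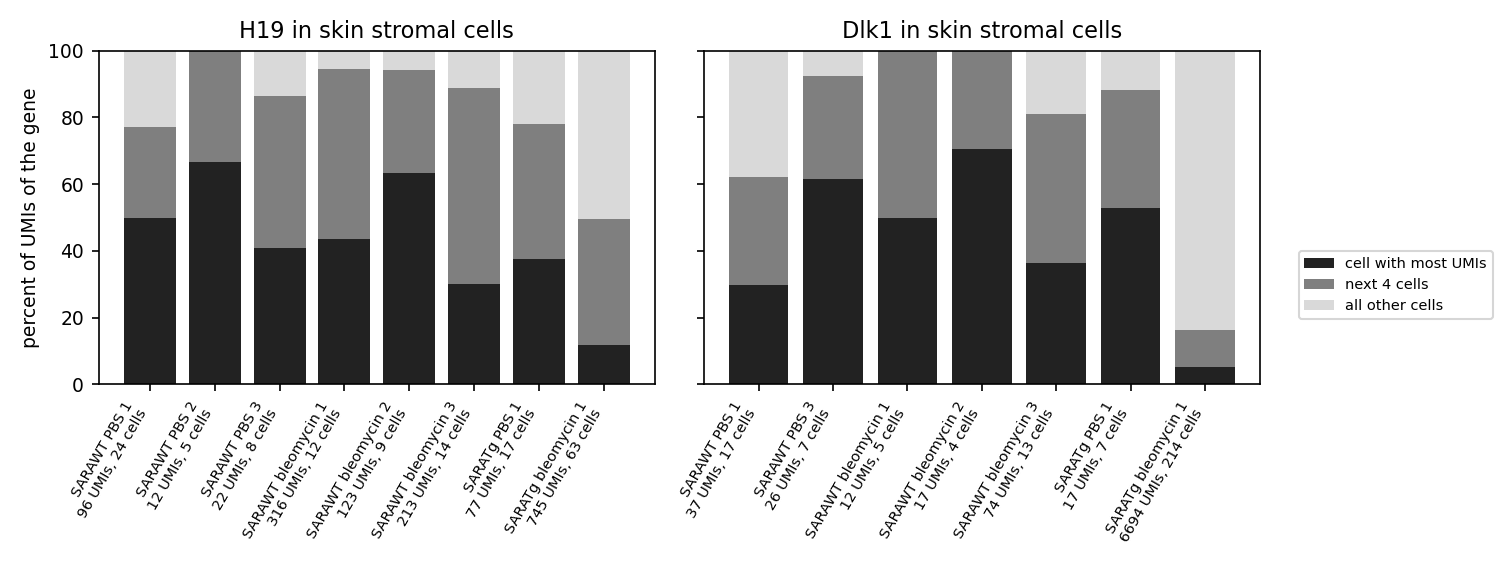
Percent of all *H19* (left) and *Dlk1* (right) UMIs of skin stromal cells that lay in the cell with most UMIs, in the next 4 cells and in all others, 1 bar per library (SARAWT PBS 2 has no *Dlk1* bar, with 0 UMIs). In each of the 6 SARAWT libraries the top 5 cells held 77.1% to 100% of *H19* UMIs, and in SARATg bleomycin 49.7% of *H19* and 16.2% of *Dlk1* UMIs.

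Because cells differed in depth, each was thinned to 1000 UMIs and shallower cells were left out (4 to 88 per library). The share of stromal cells with an *H19* UMI was then 1.02%, 0% and 0.59% in the libraries labelled SARAWT PBS 1, 2 and 3, 4.30%, 3.42% and 2.90% in SARAWT bleomycin 1, 2 and 3, 0.54% in SARATg PBS and 2.91% in SARATg bleomycin. Even before thinning, *H19* UMIs lay in only 12, 9 and 14 stromal cells of SARAWT bleomycin 1, 2 and 3 and in 5 of SARAWT PBS 2. The thinned shares rest on no more cells than that, and the 0% of SARAWT PBS 2 does not show a share below those after bleomycin. In myeloid cells, which should lack it, the *H19* share was at most 0.51%. The *Dlk1* share was 19.95% in SARATg bleomycin, 47.1% unthinned, and 0% to 2.15% in the other 7 libraries, against at most 0.08% in myeloid cells. Median depth was 1143 to 33980 UMIs in stromal cells and 2569 to 13984 UMIs in myeloid cells. Intervals and floors on these counts cover counting error only.

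Muscle markers accompanied *H19* in some libraries and not in others. In SARAWT bleomycin 2 and 3, 100% and 99.1% of stromal *H19* UMIs lay in cells that also had a UMI of a muscle progenitor or myofibre marker, which 43.1% and 49.0% of stromal cells did, and in SARAWT bleomycin 1 it was 19.6% of UMIs in 38.6% of cells. In PBS the *H19* shares were 5.21%, 91.7% and 54.5% for the libraries labelled SARAWT PBS 1, 2 and 3. Stromal cells with no such marker had *H19* at 18.01, 2.94 and 3.44 CPM in PBS and at 217, 0 and 1.88 CPM in bleomycin, so the higher level there was seen in 1 of 3 SARAWT bleomycin libraries. Leaving out only cells with a progenitor marker UMI, the level was at 14.3, 5.80 and 2.42 CPM in PBS and 149, 84.99 and 28.7 CPM in bleomycin. In SARATg, cells with neither kind of marker had 2 *H19* UMIs after PBS (0.286 CPM) and 387 after bleomycin (47.4 CPM). The cells with no marker were also shallower, with median depths of 948, 959 and 8653 UMIs against 13501, 2637 and 17868 UMIs in SARAWT bleomycin 1, 2 and 3.

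The summed muscle progenitor list (10 genes, 0 to 4 of them at 0) was at 68.9, 50.3 and 39.1 CPM in the stromal cells of the libraries labelled SARAWT PBS 1, 2 and 3 and at 37.0, 112 and 165 CPM in SARAWT bleomycin 1, 2 and 3, with SARATg at 21.3 and 52.0 CPM. The summed myofibre list was at 14.5, 199 and 48.9 CPM in PBS and 29.7, 58.8 and 21.6 CPM in bleomycin, with SARATg at 103 and 13.0 CPM. *Pax7*, the satellite cell transcription factor, was at 0, 0 and 5.33 CPM in PBS and 1.81, 2.53 and 10.4 CPM in bleomycin. *Myod1*, a transcription factor of committed muscle precursors, was at 0 CPM in each of the 3 PBS libraries and 0.725, 2.53 and 3.19 CPM in bleomycin, and the muscle filament gene *Des* at 0.331, 11.6 and 9.07 CPM and 20.7, 51.2 and 65.5 CPM. *Des* was higher in every bleomycin library than in every PBS library. So was *Myod1*, but its 0 in SARAWT PBS 2, the shallowest library, allows more than each bleomycin value. In SARATg *Myod1* went from 0.403 to 3.33 CPM and *Des* from 4.38 to 16.97 CPM. The rest of the progenitor list did not all follow, as the list sum was lower in SARAWT bleomycin 1 than in SARAWT PBS 1. In SARAWT PBS 1 nearly all of the 68.9 CPM came from list genes other than *Pax7*, *Myod1* and *Des*. A progenitor marker UMI was nonetheless seen in 25.8% of its stromal cells, so there the split of cells by that marker rests mainly on genes not named here. The myofibre actin *Acta1* was at 2.31 to 77.4 CPM in stromal cells. The part of muscle progenitor and myofibre RNA in the *H19* values was not tested.

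The stromal gate held different subgroups, gated on a few markers each, in the 2 treatments. *Cthrc1* subgroup cells were 19.9%, 19.5% and 18.8% of stromal cells in the libraries labelled SARAWT PBS 1, 2 and 3 and 35.4%, 20.8% and 40.6% in SARAWT bleomycin 1, 2 and 3, and went from 3.94% to 61.7% in SARATg. *Pi16* subgroup cells were 23.2%, 18.9% and 15.9% in PBS and 7.59%, 11.4% and 1.40% in bleomycin, and went from 16.8% to 2.20% in SARATg. The part of this shift in the *H19* and *Dlk1* levels was not tested beyond the values within subgroups.

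Within these subgroups, *H19* was at 0.36, 0 and 9.44 CPM in *Cthrc1* subgroup cells of the libraries labelled SARAWT PBS 1, 2 and 3 and at 66.6, 68.8 and 135 CPM in SARAWT bleomycin 1, 2 and 3. The *Cthrc1* subgroup carries markers of activated, matrix-producing fibroblasts. The 0 of SARAWT PBS 2 allows up to 23.8 CPM. In the *Pi16* subgroup, which carries markers of adventitial fibroblasts, *H19* was at 33.0, 32.0 and 4.15 CPM in PBS and had 0 UMIs in each bleomycin library (12, 23 and 2 cells), which allows up to 69.97, 10.97 and 148 CPM. The depth of these few cells shows no order between the treatments, and in SARATg *Pi16* cells *H19* was at 8.31 and 46.4 CPM. *Dlk1* in SARATg bleomycin was at 473 CPM in 280 *Cthrc1* cells, 402 CPM in 87 cells of no subgroup, 132 CPM in 40 *Cyp2f2* cells, 475 CPM in 10 *Pi16* cells and 0 CPM in 37 *Crabp1* cells.

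Of the other 7 members, *Igf2* had the direction of *H19* in each same-numbered pair of stromal libraries, with overlapping groups. *Igf2*, the fetal insulin-like growth factor, was at 4.74, 3.87 and 0.592 CPM in the libraries labelled SARAWT PBS 1, 2 and 3 and 17.4, 7.58 and 2.79 CPM after bleomycin, and 47 of the 48 UMIs in SARAWT bleomycin 1 lay in 1 cell. The differences of the 3 pairs on the log2(CPM + 1) scale were 1.68, 0.82 and 1.25, and SARATg cells had 0.0576 and 0.588 CPM. *Meg3*, the noncoding partner of *Dlk1*, was at 624, 546 and 506 CPM in PBS and 159, 453 and 455 CPM in bleomycin, means of 558 ± 60.1 and 356 ± 170.2 CPM (SD, n = 3 each), with no overlap between the groups. In SARATg cells *Meg3* was at 1057 CPM after PBS and 695 CPM after bleomycin.

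Among the growth regulators, *Peg3* (a zinc finger protein) was at 94.3 to 197 CPM in the 3 SARAWT PBS libraries and 32.3 to 95.8 CPM in the 3 bleomycin libraries, and *Plagl1* (a transcription factor that regulates other imprinted genes) at 48.9 to 74.8 and 19.9 to 87.4 CPM. *Cdkn1c* (the cell cycle inhibitor p57) was at 54.98 to 79.97 and 8.34 to 59.5 CPM, *Grb10* (an adaptor that dampens insulin and IGF receptor signals) at 98.2 to 122 and 74.6 to 129 CPM, and *Mest* (a hydrolase-like protein of the endoplasmic reticulum) at 4.54 to 21.2 and 3.62 to 29.9 CPM. All 5 overlapped between groups. Of 9 members, all of which passed the filter, 1 was higher and 1 lower with no overlap, and their median log2 fold change was -0.05 against -0.02 over all 10828 genes.

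The related gene lists are described in this contrast in the same way, with no test, and 14.5% of all genes were higher and 15.5% lower without overlap. Of 38 other imprinted genes, 22 passed the filter, 0 were higher and 3 lower without overlap, median log2 -0.21. Of 15 IGF receptors, binding proteins and mRNA binders, 13 passed, with 0 higher and 7 lower, median -0.81. Of 12 Notch receptors, ligands and targets, 8 passed, with 0 higher and 2 lower, median -1.13, and of 6 CDK inhibitors, 6 passed, with 2 higher and 1 lower, median 0.13.

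Where the members are expressed was compared within libraries. The contrast between classes had no part in choosing the set, but the stromal values of *H19* and *Dlk1* did, so those genes are described here without a test of their own. In each skin library the stromal level of a member was set against its level in each of 10 other classes with at least 10 cells, by a two-sided exact sign-flip permutation test on log2(CPM + 10). Adjusted over 132875 gene-by-class tests, 38 of 70 tests of the other 7 members passed 0.05, 37 of them with stromal cells higher and 1 lower, where 21.0% of all tests were called higher in stromal cells and 10.7% lower. The smallest p possible is 0.00781 with 8 libraries and 0.0156 with 7, which adjust to 0.0439 and 0.0493, and muscle progenitors and neutrophils, with 4 libraries each, cannot go below 0.125. Called counts per gene were 7 of 10 classes for *Meg3*, 6 each for *Peg3*, *Plagl1* and *Grb10*, 5 each for *Igf2* and *Mest*, and 3 for *Cdkn1c*. *Igf2* had 0 UMIs in Schwann cells (271 cells) and in mast cells (713 cells), against a stromal mean of 4.82 CPM. Sums of so few cells have a high floor, and these *Igf2* calls do not show a level below the stromal one. Each call sits at or near the smallest p, and leaving out any 1 of the 8 libraries raised that floor and brought the calls to 0 among the members and among all genes.

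*H19* was highest in myofibres of the skin classes. It was at 1198, 1298 and 2039.7 CPM in myofibres of the libraries labelled SARAWT PBS 1, 2 and 3, at 1719, 1596 and 2570 CPM in SARAWT bleomycin 1, 2 and 3, and at 1048 and 2806 CPM in SARATg PBS and bleomycin. The myofibre gate, among the classes compared above, was set only to follow contamination by muscle RNA. Whether its barcodes are whole cells was not tested. Myofibres were 5.42% of the skin cells kept and held 67.5% of all 11423 *H19* UMIs, and stromal cells held 14.0%. Myofibre content differed between libraries, and in the library labelled SARAWT PBS 1 myofibres held 45 *H19* UMIs and stromal cells 96, while myofibres held more in the other 7. The mean over 8 libraries was 1784 CPM in myofibres and 45.1 CPM in stromal cells, a log2 difference of -5.41 (SD 1.10), with stromal cells lower in 8 of 8 libraries. Myofibre *H19* was higher after bleomycin in each of the 3 SARAWT pairs and in SARATg, while the SARAWT groups overlapped, with a log2 difference of 0.47 in a fit added after the data were seen (SE 0.29, adjusted p = 0.99995, edgeR), where 0% of 2230 genes were called. Across 78 library-by-class sums of skin the genes most like *H19* were *Cavin4* (Pearson r 0.941), *Fitm1* (0.939), *Jsrp1* (0.937), *Cacng1* (0.935) and *Neb* (0.930), and *Dlk1* gave 0.108. These sums share libraries and depth, and the coefficients are descriptive.

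*Dlk1* and *Meg3* were found mostly in stromal cells in skin. Stromal cells, 10.6% of cells, held 98.4% of 6986 *Dlk1* UMIs, of which 6694 were those of SARATg bleomycin, and without that library they held 183 of 242, or 75.6%. They held 92.3% of 43251 *Meg3* UMIs, and *Meg3* was at 562 CPM in stromal cells against 2.56 CPM in myeloid cells, 1.02 CPM in keratinocytes and 0 CPM in endothelial cells (mean over libraries). *Meg3* was also at 209 CPM in Schwann cells, 154 CPM in muscle progenitors and 58.95 CPM in mural cells, and its difference between stromal and Schwann cells was not called (exact sign-flip permutation p = 0.0313, adjusted 0.0839 over all genes). The most similar patterns to *Dlk1* were those of *Crabp1* (r 0.610), *Dkk2* (0.590), *Loxl3* (0.540), *Lrrc15* (0.537) and *Pdgfra* (0.519), and *Meg3* gave 0.397. In SARATg bleomycin, 200 of the 214 stromal cells with a *Dlk1* UMI also had a *Meg3* UMI, against 322 of all 454.

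Muscle progenitors, 105 cells in all, had high levels of several growth regulators. *Peg3* was at 489.9 CPM in the 4 libraries with at least 10 such cells against 82.4 CPM in stromal cells of the same libraries, *Mest* at 149.7 against 14.1 CPM and *Plagl1* at 205 against 63.2 CPM, with stromal cells lower in 4 of 4 libraries each (exact sign-flip permutation p = 0.125, the smallest possible). *Cdkn1c* in these progenitors was at 43.7 CPM in SARATg PBS, 357 CPM in the library labelled SARAWT PBS 3, 2443 CPM in SARATg bleomycin and 3759 CPM in SARAWT bleomycin 3. These are 2 PBS and 2 bleomycin libraries of mixed genotype, and the SARAWT contrast could not be fitted with 1 library on each side. Progenitors were 0.362% of skin cells and held 28.7% of all 10162 *Cdkn1c* UMIs.

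**Figure D3:**
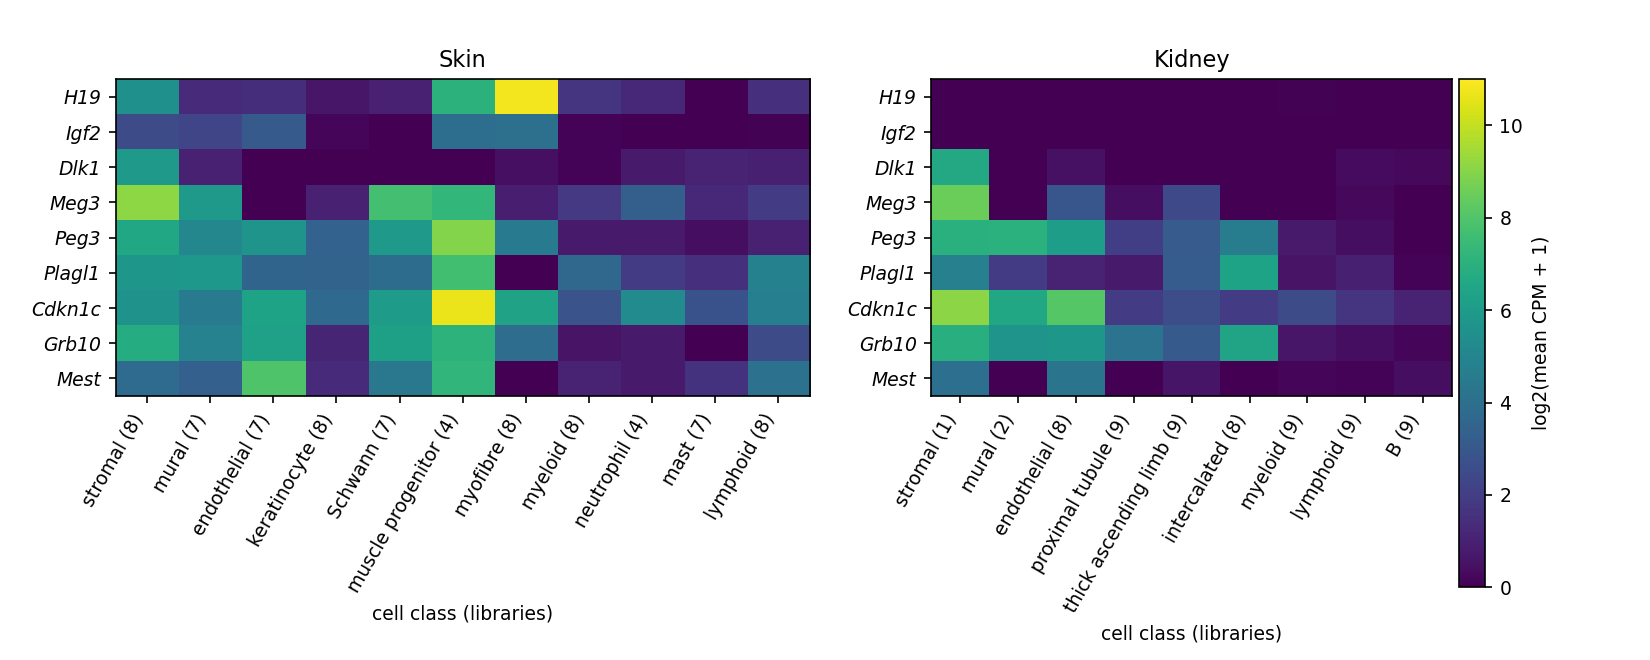
Mean level of each member by cell class in skin (left) and kidney (right), as log2(mean CPM + 1) over the libraries with at least 10 cells of the class, whose number stands in brackets. *H19* is brightest in skin myofibres (1784 CPM) and near 0 in every kidney class, and *Cdkn1c* is brightest in muscle progenitors.

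Outside the stromal gate, the response to bleomycin could be tested, since those cells had no part in choosing the members. Of 17 tests in endothelial, Schwann, myeloid and lymphoid cells, covering 7 members in 4 classes where they passed the filter, 1 passed an adjusted p of 0.05 in edgeR, *Mest* in endothelial cells. Of all genes tested, 0.403% were called in endothelial cells (0.237% higher), 0.898% in Schwann cells, 0.0244% in myeloid cells and 0% in lymphoid cells. Of the 17 tests, 6 were under an unadjusted p of 0.05, and DESeq2 called 1, where it called 1.73% of endothelial genes. The share of all genes under that unadjusted p was not computed. Nothing is therefore read from this count, or from the same counts given below for other fits. With replicate number as a block, 2 were called, where 2.56% of endothelial and 4.59% of Schwann cell genes were.

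*Mest* was at 59.3, 24.98 and 14.4 CPM in the endothelial cells of the libraries labelled SARAWT PBS 1, 2 and 3. It was at 399 CPM in SARAWT bleomycin 1 and 682 CPM in SARAWT bleomycin 3, and at 106 CPM in SARAWT bleomycin 2, whose 9 cells kept it out of the fit. Every bleomycin library lay above every PBS library, also in SARATg skin, where *Mest* went from 12.2 to 549 CPM. The share of all endothelial genes placed in this way was not computed, so nothing is read from it. The log2 difference was 4.07 (SE 0.55, adjusted p = 0.0173, edgeR, 2 bleomycin against 3 PBS libraries). With 15, 2 and 6 UMIs in SARAWT PBS 1, 2 and 3, *Mest* met the filter on low counts only through the bleomycin libraries. Its place among the tested genes thus leans on the group in which it was high. With replicate number as a block, where SARAWT PBS 2 had no partner, the adjusted p was 0.0011. Same-numbered endothelial libraries were little alike, with r of 0.0699 and 0.0976. The call rests on few libraries: without SARAWT PBS 1 or SARAWT PBS 2 the adjusted p was 0.103 and 0.0563. It was 0.232 without SARAWT bleomycin 3, which left SARAWT bleomycin 1 alone in its arm, and 0.0450 without the libraries labelled SARAWT PBS 1 and 3, which left SARAWT PBS 2 alone (15 cells), the lone library being assumed to vary like the others.

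Few cells carried the *Mest* difference. In SARAWT bleomycin 3, 142 *Mest* UMIs lay in 19 of 34 endothelial cells with 71 in 1 cell, and in SARAWT bleomycin 1, 26 of 30 UMIs lay in 1 of 13 cells. In SARAWT bleomycin 2, all 6 UMIs lay in 1 of 9 cells. In SARATg bleomycin, 76 UMIs lay in 5 of 17 cells, 36 of them in 1 cell. In the libraries labelled SARAWT PBS 1, 2 and 3 there were 15, 2 and 6 UMIs in 12 of 68, 2 of 15 and 5 of 54 cells. After thinning to 1000 UMIs the *Mest* share of endothelial cells was 9.68%, 0% and 1.85% in PBS and 20.0%, 12.5% and 27.3% in bleomycin, with SARATg at 2.70% and 17.6% and myeloid cells at 0.21% or less. The summed mural marker list in these endothelial cells was at 233, 125 and 189 CPM in PBS and 492, 336 and 490.0 CPM in bleomycin, and the stromal list at 182, 137 and 45.6 CPM and 26.6, 53.1 and 38.4 CPM. The part of mural RNA in the *Mest* values was not tested. Over 7 libraries of both treatments *Mest* averaged 249 CPM in endothelial and 13.2 CPM in stromal cells, with stromal cells lower in 7 of 7 (log2 -2.35, SD 2.10, exact sign-flip permutation p = 0.0156, adjusted 0.0493 over all genes), and 9.28% of all genes were called lower in stromal than in endothelial cells. *Mest* in mural cells was at 0, 0 and 5.67 CPM in PBS and 0, 0 and 13.6 CPM in bleomycin, where the 0 of SARAWT bleomycin 1 and 2 allows up to 287 and 65.7 CPM, and at 0 and 47.1 CPM in SARATg PBS and bleomycin.

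**Figure D4:**
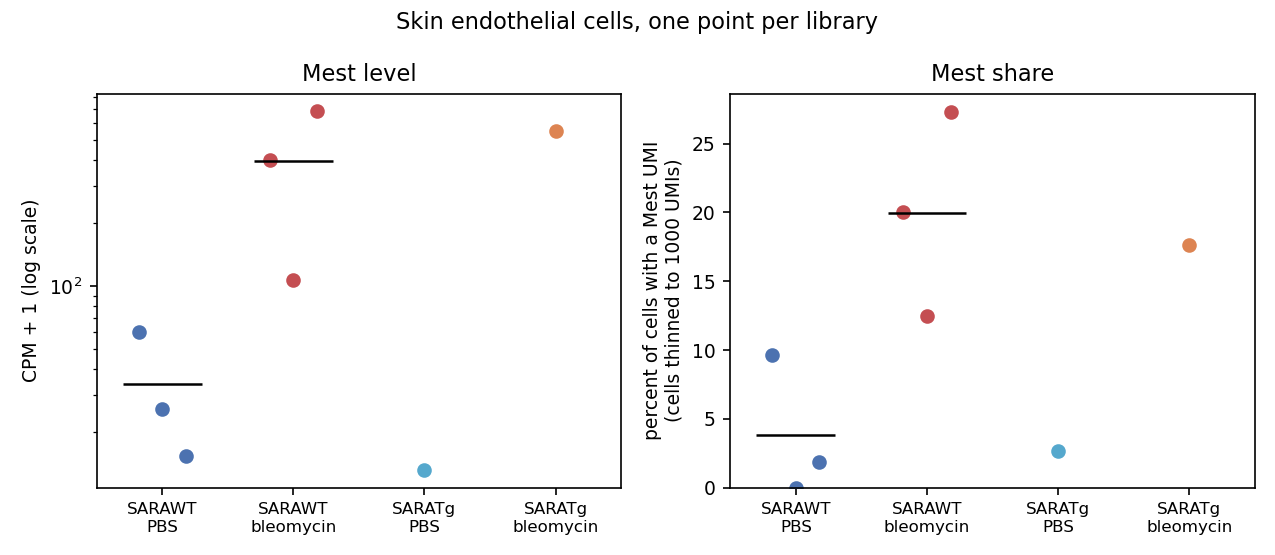
*Mest* in skin endothelial cells by library, as level (left, CPM + 1, log axis) and as the percent of cells with a UMI after thinning to 1000 UMIs (right), with a line at the mean of each SARAWT group, SARAWT bleomycin 2 (9 cells) included. Bleomycin libraries sit at 106 to 682 CPM and PBS libraries at 12.2 to 59.3 CPM.

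Of the IGF list, 7 genes were tested in endothelial cells and 1 was called, *Igfbp3*, which binds IGFs in the circulation and the pericellular space. *Igfbp3* was at 87.0, 99.9 and 40.8 CPM in the libraries labelled SARAWT PBS 1, 2 and 3 and at 3231, 531 and 1331 CPM in SARAWT bleomycin 1, 2 and 3, with SARATg at 282 and 1294 CPM. The log2 difference was 4.95 (SE 0.47, adjusted p = 0.00154, edgeR, SARAWT bleomycin 2 not in the fit). Without SARAWT PBS 1 the adjusted p was 0.103.

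With the filter on low counts, the remaining members missed the threshold outside the stromal gate. In endothelial cells *Cdkn1c* had a log2 difference of -2.23 (SE 0.83, adjusted p = 0.251, edgeR), and in Schwann cells one of -2.26 (SE 0.61, adjusted p = 0.102), which passed with the replicate block (adjusted p = 3.24e-06) and without SARAWT bleomycin 2 (0.0242). SARAWT PBS 2, with 5 Schwann cells, was not in the fit, so leaving out a further PBS library left 1 in that arm, assumed to vary like the bleomycin libraries: with the library labelled SARAWT PBS 3 alone the adjusted p was 0.0431, and with SARAWT PBS 1 alone the log2 difference was -0.02. Without a filter on low counts *Cdkn1c* passed in both classes (adjusted p = 0.0414 in endothelial and 2.18e-05 in Schwann cells). *Grb10* in Schwann cells was at 48.5 and 37.7 CPM in the 2 fitted PBS libraries and 68.1, 71.6 and 109 CPM in bleomycin, log2 1.14 (SE 0.40, adjusted p = 0.174). *H19* in myeloid cells averaged 0.621 CPM in PBS and 3.21 CPM in bleomycin, log2 2.09 (SE 0.70, adjusted p = 0.359).

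The SARATg stromal libraries were compared with SARAWT ones in a fit with gene list as a covariate, in which the lone SARATg libraries took their spread from the SARAWT groups. With that covariate the SARATg libraries are set mainly against SARAWT replicate 3, the SARAWT libraries on the same list, and the one labelled SARAWT PBS 3 had *Zfyve9* above the SARATg level. A count of 0 from such arms of 1 library does not show that the genotypes are alike. *H19* and *Dlk1* are described without a test here, since their stromal levels after bleomycin chose the set. *Dlk1* was at 437 CPM in SARATg against a mean of 14.9 CPM in SARAWT cells after bleomycin, and at 0.979 against 3.07 CPM after PBS, and *H19* at 48.6 against 92.4 CPM and at 4.44 against 10.1 CPM. In the SARAWT libraries of replicate 3 alone *Dlk1* was at 29.5 and 5.13 CPM and *H19* at 85.0 and 4.34 CPM, after bleomycin and PBS. Of 14 tests of the other 7 members, edgeR called 0, with 2 under an unadjusted p of 0.05, and 0% of 13324 genes were called in either contrast. DESeq2 also called 0 of the 14, where it called 0.180% of genes after bleomycin and 1.07% after PBS. *Igf2* after PBS, 0.0576 CPM against 0.592 CPM in the library labelled SARAWT PBS 3 and a mean of 3.07 CPM over 3, had a log2 difference of -2.89 (SE 1.21, adjusted p = 0.529, edgeR).

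Kidney held little *H19* and *Igf2* RNA. *H19* had 1 UMI and *Igf2* 9 UMIs in 476048847, *Dlk1* had 103 and *Meg3* 237, and *Mest* 180. Of the *Dlk1* UMIs, 53 lay in the 52 stromal cells and 35 in 17102 lymphoid cells. The stromal *Dlk1* UMIs came almost wholly from 1 cell in each of 2 libraries, 25 of 26 UMIs in SARATg vehicle 2 (39 cells) and all 27 in SARAWT vehicle 2 (6 cells). Of *Meg3* UMIs, 51.1% lay in the same 52 cells. *Grb10* had 4940 UMIs, 76.7% of them in proximal tubule cells, which were 36.5% of kidney cells. It was there at 12.2 to 20.6 CPM in vehicle and 12.5 to 27.7 CPM in AA libraries labelled SARAWT. Proximal tubule cells had 3788 *Grb10* UMIs in 21192 cells. Per cell there were more in intercalated (285 in 327) and endothelial cells (473 in 1863), and fewer in myeloid (56 in 9725) and lymphoid cells (32 in 17102).

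AA called none of 10 member tests in edgeR, with 3 under an unadjusted p of 0.05 and 0 called by DESeq2, where 0% of genes were called in each of the endothelial, proximal tubule, myeloid and lymphoid fits. *Cdkn1c* in endothelial cells was at 62.0, 77.6 and 94.8 CPM in SARAWT vehicle 1, 2 and 3 and at 156 CPM in the library labelled SARAWT AA 1, 1587 CPM in SARAWT AA 2 (20 cells) and 0 CPM in SARAWT AA 3 (2 cells, not in the fit). In SARAWT AA 2, 53 of its 101 UMIs lay in 1 cell. The log2 difference was 3.33 (SE 0.76, adjusted p = 0.886, edgeR), and it passed without a filter on low counts (adjusted p = 1.13e-10). Without SARAWT AA 2, which left SARAWT AA 1 alone in its arm, it was 1.04. *Peg3* there was at 116, 75.1 and 64.9 CPM in vehicle and 22.1 and 31.4 CPM in the 2 fitted AA libraries, log2 -1.78 (SE 0.45, adjusted p = 0.904).

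Intercalated cells, which handle acid and base in the collecting duct, were fitted after the data were seen. *Grb10* was at 127 and 104 CPM in SARAWT vehicle 1 and 2 and 31.5, 41.3 and 46.8 CPM in the libraries labelled SARAWT AA 1, 2 and 3. Its log2 difference was -1.41 (SE 0.34, adjusted p = 0.0572, edgeR), where 1.29% of 4026 genes were called. In the same cells *Igfbp5*, an IGF-binding protein of the IGF list, was at 749 and 671 CPM in vehicle and 126, 111 and 51.5 CPM in AA, log2 -2.78 (SE 0.29, adjusted p = 0.000699, edgeR).

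SARATg and SARAWT vehicle kidneys gave 0 calls in 9 member tests in edgeR, 0 under an unadjusted p of 0.05 and 0 by DESeq2, where 0.0328% of endothelial genes and 0% of proximal tubule and myeloid genes were called. *Mest* in endothelial cells, for example, was at 22.7, 17.5 and 32.9 CPM in SARAWT vehicle 1, 2 and 3 and 12.6 and 15.4 CPM in SARATg vehicle 1 and 2, log2 -0.87 (SE 0.41, adjusted p = 0.9996, edgeR).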

How the data were processed

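Per the submitters' processing notes and the file headers, the authors made 10x Genomics 3′ libraries and counted them with Cell Ranger on mm10, the notes naming Cell Ranger 3.0.2 and Seurat 2.3.4. The headers give version 4.0.0 for SARAWT skin replicates 1 and 2, 3.1.0 for the other skin libraries and 3.0.2 for kidney, so in skin version and gene list cannot be told apart. The deposited values are raw UMI counts per gene and barcode. The filter asked for 200 genes or more and for mitochondrial UMIs of 20% or less, and predicted doublets were removed (scanpy 1.11.5). A cell took a class on at least 3 of its markers and 2 more than any other class, and 13.0% of skin and 8.39% of kidney cells took none. Within a class, UMIs were summed per library, and sums of at least 10 cells were tested with edgeR 4.0.16 (quasi-likelihood, TMM, filterByExpr, two-sided, Benjamini-Hochberg over all genes of a fit), with DESeq2 1.42.0 as the alternative. The sign-flip test between classes, planned with an adjustment over members, was adjusted over all genes instead. Settings varied were the filters, the gate, doublets, shared barcodes, the pseudocount, each replicate and the replicate block. Same-numbered skin libraries deviated together in stromal (r 0.188, 0.227 and 0.332) and myeloid cells (0.334, 0.236 and 0.618), so skin numbers were taken as pairs. In myeloid cells SARAWT PBS 1 with SARAWT bleomycin 2 also gave 0.307. Endothelial cells gave only 0.0699 and 0.0976 for the same numbers, so pairing there is weakly borne out, and it was not checked in Schwann cells. Named were the 9 members, list genes past the threshold (at most 5 per list and fit) and the 5 genes most like *H19* and *Dlk1*. The members and lists were chosen with earlier results of these data known. On simulated counts the endothelial fit recovered 54.5% of 200 genes changed by log2 2, with 5.22% false calls, and the stromal genotype fit 32.5% with 27.0% false calls.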

Additional observations from a re-analysis of the deposited data

Results flagged for a closer look

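Skin cells that passed no gate entered no comparison, and in them 6 of 9 members were above the PBS level in every SARAWT bleomycin library, as were 14.0% of the 13926 genes at a mean of 1 CPM or more. The lowest bleomycin library had *H19* at 25.7 CPM against 16.0 CPM in the highest PBS library, *Meg3* at 95.6 against 77.1 CPM and *Peg3* at 73.5 against 43.2 CPM. For *Cdkn1c* these values were 101 and 55.7 CPM, for *Grb10* 45.5 and 18.7 CPM, and for *Mest* 46.6 and 19.9 CPM. Which cells these are was not tested.

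In 3 of 81 member-by-class combinations (3.704%, against 5.17% of all gene-by-class combinations at a mean of 1 CPM or more) every SARAWT bleomycin library lay on 1 side of every SARAWT PBS library and the single SARATg pair lay the other way, on the log2(CPM + 10) scale. *Peg3* in keratinocytes differed by 0.70 in SARATg and by -1.55 in SARAWT skin. *Mest* in lymphoid cells differed by 0.48 and -0.57, and *Mest* in myeloid cells by 0.0251 and -0.0509. The difference between the genotypes was not tested.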

How the results depend on the processing

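The call counts outside stromal cells moved with the filter and the block. In skin, 1 member test was called, 4 without a filter on low counts, 2 with the replicate block and 0 to 2 without 1 replicate, where 1.38% of endothelial, 2.83% of keratinocyte and 2.48% of Schwann cell genes were called without a filter. In AA kidney 0 were called, 1 without a filter and 2 with the replicate block, whose numbers did not pair the libraries (same-number r -0.07 to 0.20 in proximal tubule, where vehicle 1 was more like AA 2), the calls being *Cdkn1c* under both and *Peg3* with the block, all in endothelial cells, and these settings called 0.736% and 3.27% of all kidney endothelial genes. For the SARATg stromal contrast, over the 7 members other than *H19* and *Dlk1*, 0 were called and 1 with the block, *Igf2* after PBS, where the block called 2.29% of genes after PBS and 0.315% after bleomycin. That block sets each lone SARATg library against SARAWT replicate 1 with no check that the numbers pair them. Over 14 alternatives *Mest* in endothelial cells stayed between log2 3.43 and 4.96 and was called in 11. Among these alternatives, the one without SARAWT bleomycin 2 repeats the main fit, which already left that library out. The block changed no other call named in the text.

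The stromal ratio of *H19* (log2 3.19) was 4.78 within the *Cthrc1* subgroup, 6.13 within the *Cyp2f2* subgroup, 5.11 with shared barcodes left out, 2.58 without the libraries labelled SARAWT PBS 1 and 3 and 2.83 to 3.63 without 1 replicate. That of *Dlk1* (2.28) was 4.41 within *Cthrc1* cells, -1.54, reversed, within *Cyp2f2* cells, 0.91 on thinned shares and 1.30 to 2.87 without 1 replicate. The cause was not tested.

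Stromal against other classes, 38 of 70 tests were called, 38 with a pseudocount of 1 or 50, 39 with doublets kept, and 0 with the stricter gate, with the stricter filter on cells, without any 1 replicate and without the libraries labelled SARAWT PBS 1 and 3. Where it was 0, no gene at all was called. Leaving out a library raises the smallest p, and why the stricter gate and the stricter filter gave 0 was not tested. The mean share of stromal cells with a UMI depended on depth by construction: unthinned it was 5.81% for *H19*, 2.10% for *Igf2*, 53.7% for *Meg3*, 36.6% for *Peg3*, 27.5% for *Plagl1*, 26.6% for *Cdkn1c*, 50.9% for *Grb10* and 8.87% for *Mest*, and at 2000 UMIs 40.8% for *Meg3*, 14.6% for *Peg3*, 8.22% for *Plagl1*, 8.88% for *Cdkn1c*, 16.7% for *Grb10* and 2.55% for *Mest*.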
